A study of Mus musculus with 12 samples.

Results

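The vitamin D receptor and the genes of active calcium absorption were followed in RNA from the duodenum of C57BL/6N mice. The 5 genes were taken by symbol: Vdr, Trpv6, S100g, Atp2b1 and Cyp24a1, of 30676 genes listed in either of the 2 deposited count tables. Of these, 4 were listed in both tables, and Cyp24a1 was not analysed here. RNA was sequenced in 12 libraries, in 4 groups of 3. HFD PCN mice ate a high-fat diet (HFD) and received PCN (pregnenolone 16α-carbonitrile, which activates the pregnane X receptor, PXR, of rodents) by intraperitoneal injection at 50 mg/kg daily for 4 days. HFD Vehicle mice ate the same diet and received 30% DMSO in corn oil by the same route and schedule. HFD mice ate that diet and Chow mice ate regular chow, and neither has a treatment in its label. All entered their diet at 6 weeks of age and stayed on it for 18 weeks. Each library carries its own number, by which it is named below. Nothing else in the labels says that the libraries came from separate animals, so the p-values may measure only technical spread.

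Calcitriol, the active form of vitamin D, binds the nuclear receptor encoded by Vdr, which pairs with a retinoid X receptor and binds DNA at repeats of a short half-site. The duodenum is a main site of active calcium uptake, which runs through the enterocyte in a chain: calcium enters at the brush border through the channel Trpv6, is bound in the cytosol by the small intestinal calbindin S100g, and leaves across the basolateral membrane through the calcium pump Atp2b1. Trpv6 and S100g are classical targets of the receptor in the gut, Atp2b1 is induced less, and Cyp24a1 encodes the enzyme that begins the breakdown of calcitriol.

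The libraries held 4676718 (HFD Vehicle 55) to 20684369 (HFD PCN 5) counts. Vil1, a structural gene of the brush border, ranged over 1160 to 2349 CPM (counts scaled to 1000000 per library, with TMM factors over all 12 libraries), and 13 enterocyte markers together took 1.04% to 4.07% of the counts, lowest in HFD Vehicle 23. The extraction protocol names liver, whereas the tissue label is duodenum. Of 9 hepatocyte markers, 7 were listed for HFD PCN and HFD Vehicle and 6 for HFD and Chow, and together they took 0.000194% to 0.000535% of the counts. HFD Vehicle 23 and 50 stood apart: heat shock genes took 0.857% and 0.893% of their counts, against 0.124% to 0.221% in the other 4 libraries of their table over the same 6 genes, and Paneth cell markers 0.207% and 0.117%, against 0.0241% to 0.0848% in the other 10 libraries. Log2 fold changes in HFD PCN against HFD Vehicle are therefore also given without them, where HFD Vehicle 55 is the single library of its group.

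The start-site regions of the absorption genes are shown because they are where receptor half-sites were searched, and because S100g and Atp2b1, whose levels moved together over the libraries, hold very different windows. RefSeq promoter windows (build GRCm38.p6, 250 bases before the start site to 50 after it) matched 4 of the 5 genes. Capitals mark a receptor half-site, searched on both strands under the spellings AGGTCA as well as AGTTCA, further the spelling GGGTCA and, as the last spelling, GGTTCA, and each sequence runs 5′ to 3′ on the strand of its gene. The windows lie at chrX:162964550-162964849 (S100g, minus strand), chr6:41636356-41636655 (Trpv6, minus strand), chr15:97908247-97908546 (Vdr, minus strand) and chr10:98914392-98914691 (Atp2b1, plus strand).
S100g: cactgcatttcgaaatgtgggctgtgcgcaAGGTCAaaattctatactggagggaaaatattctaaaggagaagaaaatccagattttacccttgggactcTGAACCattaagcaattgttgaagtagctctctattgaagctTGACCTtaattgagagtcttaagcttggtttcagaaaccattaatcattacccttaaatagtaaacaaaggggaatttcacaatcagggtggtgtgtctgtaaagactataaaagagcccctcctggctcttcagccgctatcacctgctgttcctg
Trpv6: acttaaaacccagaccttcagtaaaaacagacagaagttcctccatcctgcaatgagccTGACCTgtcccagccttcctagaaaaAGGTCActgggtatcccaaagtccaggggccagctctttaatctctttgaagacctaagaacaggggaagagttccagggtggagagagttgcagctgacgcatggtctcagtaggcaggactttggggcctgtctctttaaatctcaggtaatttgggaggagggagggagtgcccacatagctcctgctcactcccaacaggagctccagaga
Vdr: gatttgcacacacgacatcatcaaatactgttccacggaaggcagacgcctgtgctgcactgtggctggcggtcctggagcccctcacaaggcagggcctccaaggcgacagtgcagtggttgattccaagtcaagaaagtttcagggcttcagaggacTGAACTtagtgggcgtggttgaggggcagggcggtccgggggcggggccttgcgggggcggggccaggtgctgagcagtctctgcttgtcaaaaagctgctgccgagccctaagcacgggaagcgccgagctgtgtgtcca
Atp2b1: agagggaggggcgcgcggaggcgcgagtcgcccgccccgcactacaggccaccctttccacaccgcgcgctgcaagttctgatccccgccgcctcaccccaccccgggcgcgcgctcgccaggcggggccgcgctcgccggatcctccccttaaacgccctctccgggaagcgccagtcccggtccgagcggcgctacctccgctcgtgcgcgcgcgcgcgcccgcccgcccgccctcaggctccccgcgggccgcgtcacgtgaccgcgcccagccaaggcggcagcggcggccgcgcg

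The S100g window held 3 half-sites, from -220 to -215, -149 to -144 and -107 to -102 relative to the start. The Trpv6 window held 2, from -191 to -186 and -165 to -160, and the Vdr window 1, from -91 to -86. Neither the printed Atp2b1 window nor the other window listed for that gene held one. At least 1 half-site was present in 43.7% of 32851 windows of 27025 genes, so a single match is common. The direct repeat of 2 half-sites with a spacer of 3 bases, which contains the half-sites and is the classical form of a vitamin D response element, was present in 0.0396% of windows and in none of the windows of these 4 genes. These matches describe letters only.

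In the deposited coordinates of GRCm38, Vdr (ENSMUSG00000022479) spans chr15:97854425-97910630 on the minus strand and Trpv6 (ENSMUSG00000029868) chr6:41620624-41636405 on the minus strand. S100g (ENSMUSG00000040808) spans chrX:162961992-162964599 on the minus strand and Atp2b1 (ENSMUSG00000019943) chr10:98914406-99026143 on the plus strand. The printed Vdr window lies wholly within the span of Vdr, at a start inside the gene and not at its outer end. The printed S100g and Trpv6 windows cross the outer start of their genes. S100g lies within the span of the plus-strand gene Ctps2, with 0 exon bases shared. Merged exons in GENCODE M21 measured 0.48 kb for S100g, 3.936 kb for Trpv6, 5.65 kb for Vdr and 15.218 kb for Atp2b1.

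The receptor, S100g and Atp2b1 were readily measured in the duodenum, whereas Trpv6 was at the edge of detection. On a scale of CPM per kb of exon, the level of S100g averaged 314 ± 158 in HFD PCN, 63.7 ± 91.3 in HFD Vehicle, 99.9 ± 81.8 in HFD and 185 ± 144 in Chow (SD, n = 3 each). On the same scale Vdr averaged 60.4 ± 2.94 in HFD PCN, 45.2 ± 11.9 in HFD Vehicle, 50.7 ± 15.0 in HFD and 60.6 ± 11.0 in Chow. Atp2b1 averaged 62.9 ± 27.6 CPM per kb in HFD PCN, 26.6 ± 13.0 in HFD Vehicle, 38.3 ± 15.2 in HFD and 32.4 ± 12.03 in Chow. S100g was thus the most abundant of the genes by mean level in each group, but not in each library. In Chow 19 it stood at 19.5 CPM per kb, against 54.6 for Vdr and 20.3 for Atp2b1. In HFD Vehicle 23 it stood at 2.65, against 31.7 for Vdr and 13.5 for Atp2b1. HFD Vehicle 50 had 19.8, against 54.0 and 27.1, and HFD 38 had 15.6, against 38.7 and 24.7. In HFD Vehicle only HFD Vehicle 55 had S100g above both other genes, at 169.

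The level of Vdr, the receptor itself, varied least. It stood at 351, 350 and 322 CPM in HFD PCN 5, 11 and 27, and at 179, 305 and 281 CPM in HFD Vehicle 23, 50 and 55. It stood at 259, 381 and 218 CPM in HFD 4, 30 and 38, and at 414, 304 and 309 CPM in Chow 8, 17 and 19. Over the 12 libraries the highest value was 2.31 times the lowest. All HFD PCN libraries lay above all HFD Vehicle libraries, and the groups overlapped in HFD against Chow, HFD Vehicle against HFD and HFD PCN against HFD. Of 16090 genes with levels in the PCN comparison, 9.69% were higher without overlap in HFD PCN, so separation of this kind was common there. By mean level the order was Chow (342 ± 62.0 CPM), HFD PCN (341 ± 16.6), HFD (286 ± 84.5) and HFD Vehicle (255 ± 67.1). Neighbours in this order differed by less than the larger SD of each pair.

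S100g, the cytosolic calcium buffer, varied most. It stood at 141, 231 and 80.7 CPM in HFD PCN 5, 11 and 27, and at 1.27, 9.50 and 81.0 CPM in HFD Vehicle 23, 50 and 55. It stood at 50.5, 85.9 and 7.50 CPM in HFD 4, 30 and 38, and at 122, 135 and 9.36 CPM in Chow 8, 17 and 19. The low libraries, HFD Vehicle 23 and 50, HFD 38 and Chow 19, came from 3 of the 4 groups, and no HFD PCN library was among them. HFD Vehicle 55 lay marginally above HFD PCN 27, so the groups overlapped in every comparison. The lowest library rested on 18 counts (HFD Vehicle 23) and the highest on 3279 (HFD PCN 11), and the highest level was 182 times the lowest. By mean level the order was HFD PCN (151 ± 75.7 CPM), Chow (88.7 ± 69.0), HFD (48.0 ± 39.2) and HFD Vehicle (30.6 ± 43.8). Neighbours were closer than the larger SD of each pair.

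Atp2b1, the pump of the exit step, stood at 861, 1416 and 593 CPM in HFD PCN 5, 11 and 27, and at 205, 412 and 600 CPM in HFD Vehicle 23, 50 and 55. It stood at 539, 833 and 376 CPM in HFD 4, 30 and 38, and at 675, 494 and 308 CPM in Chow 8, 17 and 19. HFD Vehicle 55 again lay just above HFD PCN 27, and the groups overlapped in each comparison. The lowest library of each group was HFD PCN 27, HFD Vehicle 23, HFD 38 and Chow 19, as for S100g. The highest level was 6.90 times the lowest. By mean level the order was HFD PCN (957 ± 420 CPM), HFD (583 ± 231), Chow (493 ± 183) and HFD Vehicle (405 ± 197). Neighbours were closer than the larger SD of each pair.

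Trpv6, the entry channel, had 0 counts in all 3 HFD PCN libraries. It had 0, 0 and 1 in HFD Vehicle 23, 50 and 55, and 0, 1 and 0 in HFD 4, 30 and 38. In Chow 8, 17 and 19 it had 5, 3 and 0. Chow was thus the only group with more than 1 count in a library, and Chow 19 had none. The summed 0 counts of HFD PCN, of 46047517, allow a level of up to 0.0652 CPM (3 counts over the group). The 1 count of HFD, of 40167916, against 8 in Chow, of 29502709, gave a ratio of 0.0918 (95% exact interval 0.00207 to 0.685). This interval covers counting error only and compares these libraries, not the diets. In HFD PCN against HFD Vehicle both groups were at or below the limit of 3 counts, so no fold is given. Trpv6 was left out of the tests by the filter on low counts in all 4 comparisons.

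**Figure D1:**
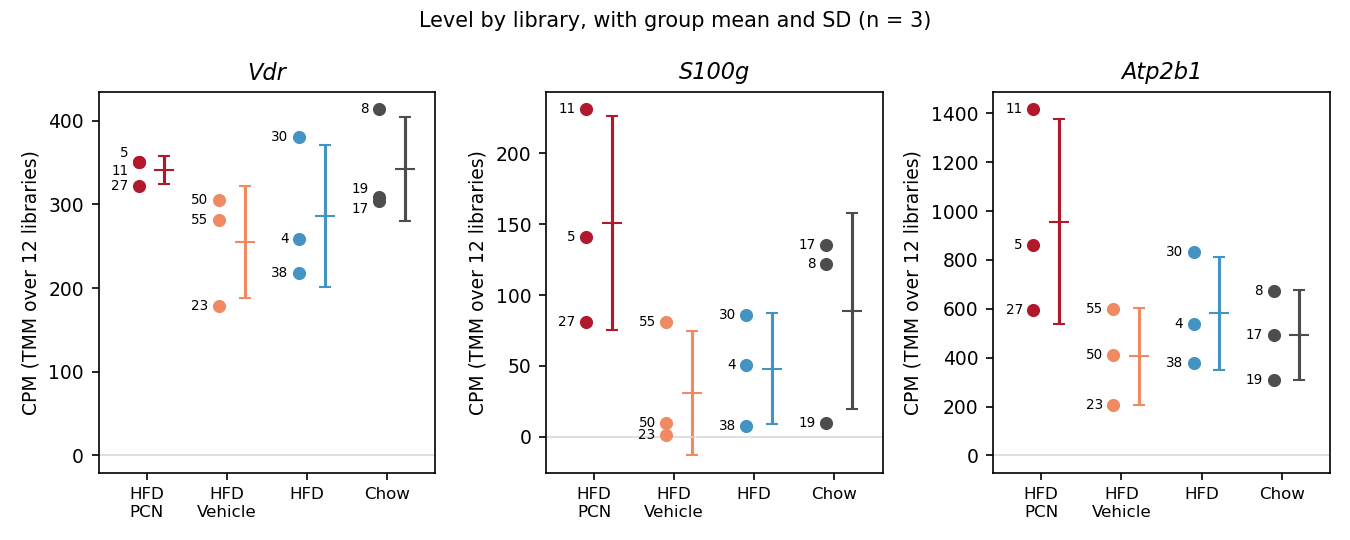
Level of Vdr, S100g and Atp2b1 (CPM, TMM over 12 libraries, linear axes) in each library, with the group mean and SD beside the points (n = 3). Points carry the library number. For Vdr all HFD PCN libraries lie above all HFD Vehicle libraries, whereas for S100g and Atp2b1 HFD Vehicle 55 reaches the lowest HFD PCN library.

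The effect of PCN was asked with HFD PCN against HFD Vehicle. All 3 fitted absorption genes had a positive log2 fold change and none was called at an adjusted p under 0.05 by edgeR's quasi-likelihood test, against 0.0621% of 16110 genes called (10 genes). Unadjusted p was under 0.05 for 1 of the 3, Atp2b1, and for 17.9% of all genes tested. Atp2b1 had a log2 fold change of 1.24 ± 0.44 (SE), or 2.37-fold (edgeR adjusted p = 0.241). Its approximate 95% interval was 0.39 to 2.10. Such intervals use a normal quantile and are narrower than the quasi-likelihood test would give. S100g had the largest value and the widest error, 2.38 ± 1.31 on the log2 scale (approximate 95% interval -0.20 to 4.96, edgeR adjusted p = 0.366). Vdr had 0.42 ± 0.25 (-0.08 to 0.91, edgeR adjusted p = 0.379). Log2 fold changes given in the authors' deposited table were 1.04 for Atp2b1 (adjusted p = 0.1345), 0.40 for Vdr (0.5631), 0.67 for S100g (0.6025) and -0.14 for Trpv6 (0.8599).

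These values moved with the Vehicle libraries included. Without HFD Vehicle 55, edgeR gave Atp2b1 a log2 fold change of 1.63 and an adjusted p of 0.0252, and S100g 4.77 with an adjusted p of 0.0538, and the genes called numbered 3697. Without HFD Vehicle 23 and 50, with that single Vehicle library assumed to vary like the HFD PCN libraries, edgeR gave 0.68 for Atp2b1, 0.90 for S100g and 0.28 for Vdr, each with an adjusted p of 0.997. Marker lists moved with the same libraries: 13 of 13 enterocyte markers (median log2 fold change 0.44), 6 of 8 proximal markers (0.93) and 8 of 8 T and NK cell markers (1.18) had positive values in HFD PCN against HFD Vehicle, and 6 of 6 heat shock genes had negative ones (-2.42), none of them called. Without HFD Vehicle 23 and 50 the medians of these lists were 0.060, 0.40, 0.27 and 0.52. Their part in the values of the absorption genes was not tested. In bulk RNA, fewer cells of a type and less RNA per cell cannot be told apart. Relative to the enterocyte gene Vil1 in the same library, S100g stood at 73.9, 137 and 38.4 counts per 1000 Vil1 counts in HFD PCN 5, 11 and 27, and at 1.10, 4.80 and 42.8 in HFD Vehicle 23, 50 and 55. Atp2b1 stood at 453, 838 and 282 counts per 1000 Vil1 counts in HFD PCN and at 177, 208 and 317 in HFD Vehicle. Both still overlapped between the groups on this scale. For Vdr the values were 185, 207 and 153 counts per 1000 Vil1 counts in HFD PCN and 154, 154 and 148 in HFD Vehicle, so its separation between the groups was not present on this scale.

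The effect of the diet was asked with HFD against Chow. None of the 3 fitted genes was called by edgeR, against 0.0655% of 15278 genes (10 genes), and none had an unadjusted p under 0.05, against 10.3% of all genes. Vdr had a log2 fold change of -0.24 ± 0.23 (approximate 95% interval -0.70 to 0.22, edgeR adjusted p = 0.726). S100g had -0.86 ± 1.29 (-3.38 to 1.67, edgeR adjusted p = 0.841) and Atp2b1 0.26 ± 0.34 (-0.41 to 0.93, edgeR adjusted p = 0.806). All 4 listed genes had an adjusted p of 0.9417 in the authors' deposited table, with log2 fold changes of -0.21 for Vdr, -0.14 for S100g, 0.19 for Atp2b1 and -0.24 for Trpv6. Marker lists differed here too: 9 of 9 pancreatic acinar markers (median log2 fold change -3.17) and 8 of 8 T and NK cell markers (-1.28) had negative values. All 8 macrophage markers had positive ones (0.65), 1 of them called. Enterocyte markers were split, 5 positive and 8 negative (-0.060), and 6 of 8 proximal markers were positive (0.34). The part of these lists in the fold changes above was not tested. Each group held 1 library low in S100g. Without HFD 38 and Chow 19, a choice made after seeing the data, S100g had -0.89 with an edgeR adjusted p of 0.309. Both libraries were picked for their low S100g, so this value is a description. With 1 library left out, the log2 fold change of S100g ran from -1.68 without HFD 30 and -1.40 without Chow 19 to -0.57 without Chow 8, -0.41 without Chow 17 and -0.33 without HFD 38. That of Vdr ran from -0.51 without HFD 30 to -0.069 without HFD 38 and -0.095 without Chow 8, and that of Atp2b1 from -0.091 without HFD 30 and 0.014 without Chow 19 to 0.54 without Chow 8.

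HFD Vehicle against HFD and HFD PCN against HFD cross the 2 tables and share their libraries with the comparisons above. In HFD Vehicle against HFD, edgeR called 0% of 16255 genes (953, or 5.86%, had an unadjusted p under 0.05, and DESeq2 called 32, none of them a fitted absorption gene). Vdr had -0.18 ± 0.31, S100g -0.74 ± 1.31 and Atp2b1 -0.55 ± 0.43 on the log2 scale, with edgeR adjusted p of 0.891, 0.896 and 0.817. Without HFD Vehicle 55 the S100g value was -3.14, and without HFD Vehicle 23 and 50 it was 0.73. Without the same pair Vdr had -0.047 and Atp2b1 0.020. In HFD PCN against HFD, where edgeR called 0.325% of 15982 genes and none of the 3, and 18.2% of all genes but none of the 3 had an unadjusted p under 0.05, Atp2b1 had 0.71 ± 0.36, S100g 1.65 ± 0.98 and Vdr 0.25 ± 0.23, with edgeR adjusted p of 0.317, 0.444 and 0.581. With 1 library left out, Atp2b1 ran from 0.32 (without HFD PCN 11) to 1.06 (without HFD 30), S100g from 1.13 (without HFD 38) to 2.46 (without HFD 30) and Vdr from 0.086 (without HFD 38) to 0.51 (without HFD 30).

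**Figure D2:**
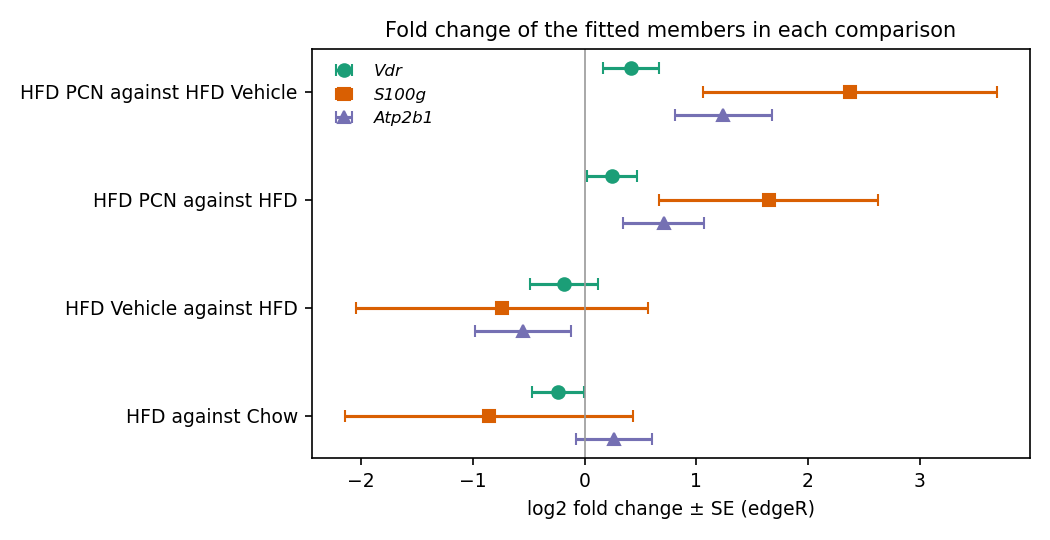
Log2 fold change of Vdr, S100g and Atp2b1 from edgeR in each of the 4 comparisons, with the standard error as bars. The bars of S100g are the longest in every comparison, at 0.98 to 1.31, against 0.23 to 0.31 for Vdr.

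The spread of S100g between libraries of the same group was among the largest of all genes. The pooled within-group SD of its log2 CPM was 2.07, larger than for 99.8% of 13687 genes, whose median was 0.32. Atp2b1 had an SD of 0.65 (larger than for 91.6% of genes) and Vdr 0.32 (larger than for 49.4%). Genes that mark the proximal small intestine behaved alike: Slc40a1, which encodes the iron exporter ferroportin, had an SD of 2.08, Cybrd1, the duodenal iron reductase, 1.97, and Pdx1, a transcription factor of the duodenum, 0.83. Vil1 had 0.32.

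The libraries low in S100g were low in these proximal genes. Slc40a1 stood at 434, 630 and 264 CPM in HFD PCN 5, 11 and 27, at 8.90, 112 and 303 in HFD Vehicle 23, 50 and 55, at 445, 895 and 39.8 in HFD 4, 30 and 38, and at 319, 242 and 21.8 in Chow 8, 17 and 19. Pdx1 stood at 49.6, 58.9 and 31.2 CPM in HFD PCN, at 10.1, 27.9 and 32.8 in HFD Vehicle, at 43.8, 68.7 and 18.1 in HFD, and at 47.6, 38.4 and 15.1 in Chow, with the libraries in the same order. Both genes were lowest in HFD Vehicle 23, 50, HFD 38 and Chow 19, the libraries that were also lowest in S100g. The 8 proximal markers together took 0.0441% and 0.0666% of the counts in HFD Vehicle 23 and 50, 0.0633% in HFD 38 and 0.0676% in Chow 19, and 0.103% to 0.222% in the other 8 libraries. By group the list took 0.112% to 0.222% in HFD PCN, 0.0441% to 0.131% in HFD Vehicle, 0.0633% to 0.186% in HFD and 0.0676% to 0.107% in Chow, and all 8 markers had counts.

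Not all proximal markers followed S100g. The transcription factor Gata4 stood at 88.7 to 159 CPM over the 12 libraries, with 88.7 CPM in Chow 19 and 119 CPM in HFD 38, and had a Pearson r with S100g of 0.034. The libraries low in S100g were not uniformly low in enterocyte markers: the list took 4.07% in HFD 38 and 3.83% in Chow 19, the highest shares of HFD and of Chow, and 1.04% and 2.75% in HFD Vehicle 23 and 50. Distal small intestine and colon markers took 0.0168% to 0.0217% in HFD PCN, 0.0112% to 0.0242% in HFD Vehicle, 0.0106% to 0.0187% in HFD and 0.0179% to 0.0337% in Chow. The libraries low in S100g were split on this list. HFD 38 (0.0187%) and Chow 19 (0.0337%) were the highest of their groups. HFD Vehicle 23 (0.0112%) and 50 (0.0143%) lay below HFD Vehicle 55 (0.0242%). The part of the sampled position along the gut in the S100g and Atp2b1 values was not tested.

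Over the 12 libraries, which differ in depth and share one scaling, log2 CPM of S100g and Atp2b1 had a Pearson r of 0.90 and a Spearman rho of 0.88. After group means were subtracted, r was 0.90, so the relation held within groups. S100g had r of 0.92 with Slc40a1 and 0.90 with Pdx1 (0.97 and 0.93 within groups), and 0.33 with Vil1. Atp2b1 had r of 0.92 with Pdx1 and 0.90 with Slc40a1, and 0.35 with Vil1. Vdr had lower values, 0.78 with S100g, 0.75 with Atp2b1 and 0.79 with Pdx1. These are descriptions of 12 libraries in which a few low ones carry much of the range.

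**Figure D3:**
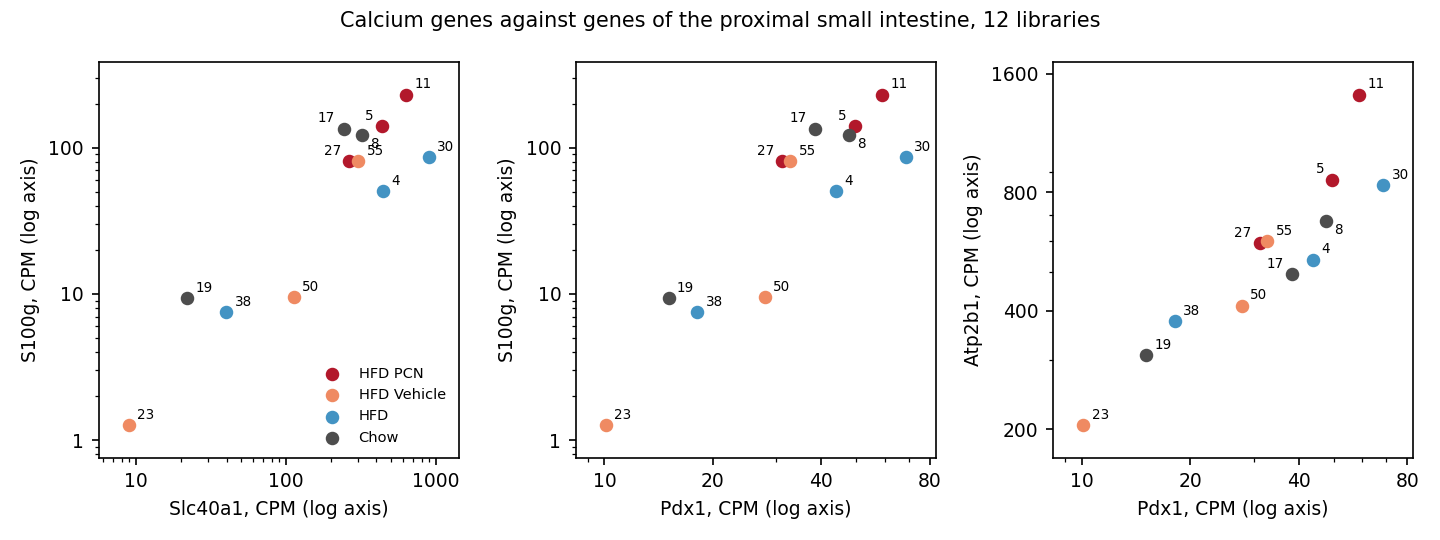
Level of S100g against Slc40a1 and against Pdx1, and of Atp2b1 against Pdx1 (CPM, log axes), for the 12 libraries, coloured by group and marked with the library number. HFD Vehicle 23 and 50, HFD 38 and Chow 19 sit at the low end of all 3 panels, and libraries of the same group lie far apart.

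With the mean log2 CPM of the proximal list as a covariate, a choice made after seeing the data, edgeR gave S100g 0.65 and Atp2b1 0.27 in HFD PCN against HFD Vehicle. It called neither of them nor any other gene there. In HFD against Chow the same covariate gave S100g -1.74 with an edgeR adjusted p of 0.0434 and Atp2b1 -0.013 with 0.994. The number of all genes called in that fit is not given here, so the S100g call cannot be set against a background. The covariate leaves few residual degrees of freedom and was built from genes measured in the same libraries.

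The genes whose log2 CPM followed each absorption gene most closely were ranked among 12138 genes over the 12 libraries. For S100g they were Akp3, an intestinal alkaline phosphatase (r = 0.96), the bicarbonate transporter Slc4a7 (0.92) and Slc40a1 (0.92). For Atp2b1 they were Ncoa4 (0.96), the bicarbonate transporter Slc4a4 (0.96) and Ank (0.95), and for Vdr they included Trim30d (0.93) and the xanthine dehydrogenase Xdh (0.90).

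The wider vitamin D pathway was read from 6 lists. Genes of vitamin D supply and metabolism had 0 of 5 fitted members called in HFD PCN against HFD Vehicle and 0 of 4 in HFD against Chow. In the PCN comparison 4 had a positive log2 fold change and 1 a negative one, over -2.33 to 0.72. There 1 of the 5 had an unadjusted edgeR p under 0.05, against 17.9% of all genes. Cubn, the receptor subunit that takes up the vitamin D carrier protein in the kidney, averaged 543 ± 228 CPM in HFD PCN, 331 ± 223 in HFD Vehicle, 161 ± 124 in HFD and 369 ± 210 in Chow (SD, n = 3 each). Its log2 fold change was 0.72 ± 0.47 in HFD PCN against HFD Vehicle (edgeR adjusted p = 0.408) and -1.19 ± 0.75 in HFD against Chow (0.604). Cyp2r1 and Cyp27a1, hydroxylases of vitamin D, had 0.58 ± 0.44 and 0.16 ± 0.29 in HFD PCN against HFD Vehicle. Dhcr7, which consumes the precursor of vitamin D, had 0.12 ± 0.21 there. These values were -0.096 for Cubn, 0.016 for Cyp2r1, -0.20 for Cyp27a1 and -0.12 for Dhcr7 without HFD Vehicle 23 and 50. In HFD against Chow, Cyp2r1, Cyp27a1 and Dhcr7 had values between -0.22 and 0.0029.

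Among receptor partners and coregulators, 0 of 11 fitted genes were called in either of these comparisons, and their median log2 fold change was 0.15 in HFD PCN against HFD Vehicle and -0.09 in HFD against Chow. The medians over all genes were -0.012 and 0.0046. Rxra, the retinoid X receptor most abundant here, averaged 145 ± 7.45 CPM in HFD PCN, 129 ± 21.2 in HFD Vehicle, 154 ± 33.3 in HFD and 138 ± 5.44 in Chow. The corepressor Ncor1 stood at 343, 373 and 394 CPM in HFD 4, 30 and 38, against 595, 447 and 630 CPM in Chow 8, 17 and 19, without overlap. Its log2 fold change was -0.58 ± 0.20 (edgeR adjusted p = 0.393), in a comparison where 8.80% of genes were lower without overlap. In HFD PCN against HFD Vehicle the retinoid X receptor Rxrb had -0.53 ± 0.25 (edgeR adjusted p = 0.300) and the disulfide isomerase Pdia3 0.58 ± 0.27 (0.291). They had -0.31 and 0.37 without HFD Vehicle 23 and 50.

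Other calcium channels, buffers, pumps and exchangers had 0 of 15 fitted genes called in HFD PCN against HFD Vehicle (median -0.49) and 0 of 14 in HFD against Chow (median 0.28). The pump Atp2b4, a relative of Atp2b1, had the opposite sign, -1.01 ± 0.34 in HFD PCN against HFD Vehicle (edgeR adjusted p = 0.241). The exchanger Slc8a2 had -1.80 ± 0.55 (0.231), the channel Cacna1d -0.96 ± 0.33 and the chaperone-associated Fkbp4 -0.85 ± 0.39. Without HFD Vehicle 23 and 50 the median of the list was -0.0065. Atp2b4 then had 0.0058, Slc8a2 -0.52, Cacna1d -0.38 and Fkbp4 0.28, so the opposite sign of Atp2b4 and Atp2b1 was not present without that pair. With all libraries, 8 of 8 smooth muscle markers, 7 of 7 fibroblast markers and 8 of 8 Paneth cell markers also had negative values, none of them called, against 5 of 8, 7 of 7 and 7 of 7 fitted without that pair. Paneth cell markers took 0.0244% to 0.0571% of the counts in HFD PCN and 0.0616% to 0.207% in HFD Vehicle, and fibroblast markers 0.013% to 0.0196% in HFD PCN and 0.0255% to 0.0315% in HFD Vehicle. Smooth muscle markers took 0.0568% to 0.0771% of the counts in HFD PCN and 0.0698% to 0.119% in HFD Vehicle. Their part in these values was not tested.

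The paracellular route, in which calcium passes between cells through tight junctions, had 0 of 11 fitted genes called in either comparison. Cldn2, a cation-selective pore, stood at 70.1, 43.1 and 83.8 CPM in HFD 4, 30 and 38, against 31.2, 40.2 and 34.3 CPM in Chow 8, 17 and 19. The groups did not overlap, with a log2 fold change of 0.91 ± 0.23 and an edgeR adjusted p of 0.243, where 7.60% of genes were higher without overlap. In the PCN comparison Cldn2 stood at 104, 102 and 63.6 CPM in HFD PCN 5, 11 and 27, against 18.7, 15.3 and 79.3 CPM in HFD Vehicle 23, 50 and 55. Here the groups overlapped through HFD Vehicle 55, and the log2 fold change was 1.29 ± 0.60 (edgeR adjusted p = 0.297). Cldn15, the other main cation pore of the small intestine, had 0.03 ± 0.32 in HFD PCN against HFD Vehicle and 0.63 ± 0.24 in HFD against Chow. Cldn12 had 0.62 ± 0.32 and -0.06 ± 0.18 in these comparisons, and Cldn4 0.997 ± 0.482 and -0.16 ± 0.84. The PCN comparison without HFD Vehicle 23 and 50 gave 0.18 for Cldn2, -0.11 for Cldn15, -0.036 for Cldn12 and 0.51 for Cldn4.

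Phosphate transporters, also under vitamin D control in the gut, had 0 of 3 and 0 of 4 fitted genes called in HFD PCN against HFD Vehicle and in HFD against Chow. The exporter Xpr1 averaged 202 ± 36.1 CPM in HFD PCN and 132 ± 42.7 in HFD Vehicle, with a log2 fold change of 0.61 ± 0.28 (edgeR adjusted p = 0.289). The importers Slc20a1 and Slc20a2 had 0.21 ± 0.25 and -0.21 ± 0.24 there. Xpr1 had 0.34, Slc20a1 0.51 and Slc20a2 -0.37 without HFD Vehicle 23 and 50. Slc34a2, the sodium-phosphate cotransporter of the brush border, was at or below 1.64 CPM in HFD and between 1.33 and 7.66 CPM in Chow, and had -2.52 ± 1.23 in HFD against Chow (edgeR adjusted p = 0.524).

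Other genes known to respond to the receptor held the only calls of the 6 lists, 2 higher genes in HFD PCN against HFD, where 0.244% of all genes were called higher. They were Cyp3a11, a drug-metabolizing enzyme, and Abcb1a, a drug efflux pump, both also known targets of PXR. Cyp3a11 stood at 11919, 9276 and 4653 CPM in HFD PCN 5, 11 and 27, against 406, 729 and 530 CPM in HFD 4, 30 and 38. It rose by 3.95 ± 0.43 on the log2 scale (edgeR adjusted p = 0.00214). Abcb1a stood at 1230, 1116 and 657 CPM in HFD PCN, against 151, 196 and 373 CPM in HFD, and rose by 2.05 ± 0.36 (edgeR adjusted p = 0.0483).

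In HFD PCN against HFD Vehicle 0 of 6 fitted genes of this list were called, with a median log2 fold change of 1.38. Cyp3a11 stood at 164, 517 and 1155 CPM in HFD Vehicle 23, 50 and 55, and had 3.83 ± 0.71 (edgeR adjusted p = 0.200), and Abcb1a had 1.34 ± 0.31 (0.231). Slc30a10, a manganese exporter induced by vitamin D in the gut, stood at 174, 326 and 144 CPM in HFD PCN 5, 11 and 27, against 21.3, 107 and 115 CPM in HFD Vehicle 23, 50 and 55. The groups did not overlap, in a comparison where 9.69% of genes were higher without overlap. The log2 fold change was 1.41 ± 0.58 (edgeR adjusted p = 0.268). Over the 12 libraries Slc30a10 had r of 0.91 with S100g and 0.92 with Atp2b1, and its 4 lowest libraries were the 4 low in S100g. Slc37a2, a sugar phosphate transporter, had 1.78 ± 0.56 (edgeR adjusted p = 0.239) and Cdkn1a, a cell cycle inhibitor, 0.15 ± 0.22. Without HFD Vehicle 23 and 50 the median of the list was 0.9999, with 2.90 for Cyp3a11, 1.10 for Abcb1a, 0.90 for Slc30a10, 1.64 for Slc37a2 and -0.097 for Cdkn1a. In HFD against Chow, Cyp3a11 had -1.77 ± 0.28 (edgeR adjusted p = 0.0611) and Slc30a10 0.44 ± 0.70.

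**Figure D4:**
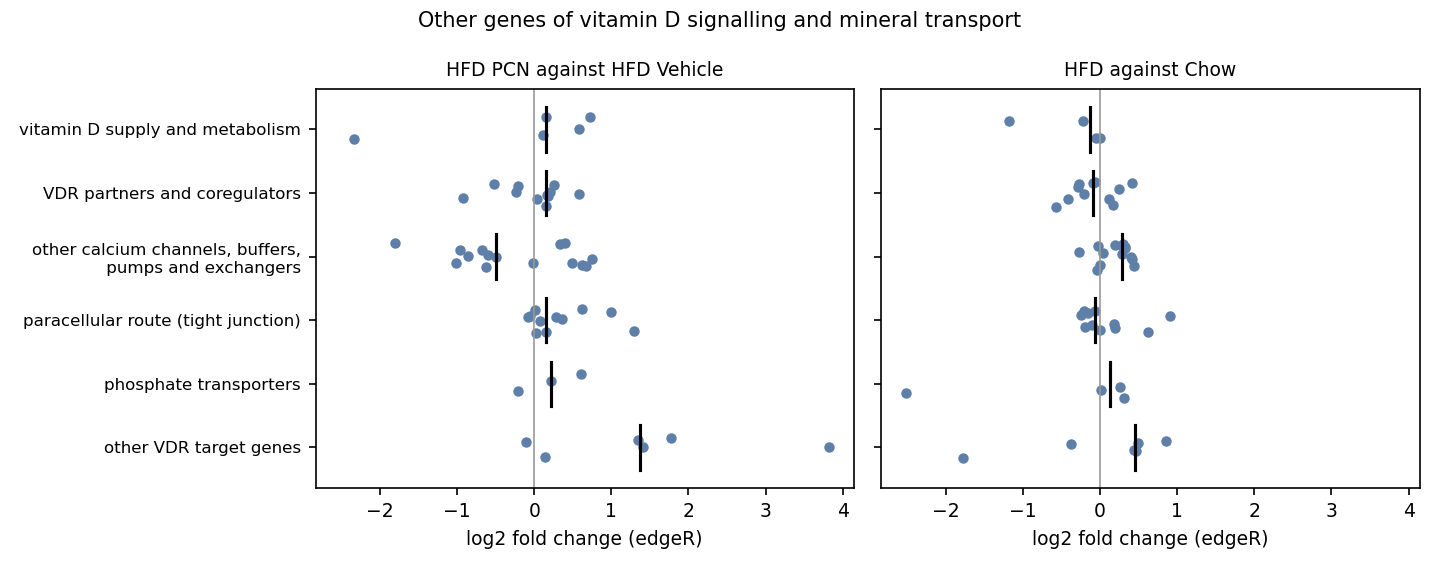
Log2 fold change (edgeR) of each fitted gene of 6 lists of vitamin D signalling and mineral transport, in HFD PCN against HFD Vehicle and in HFD against Chow. Each point is a gene, and the black line is the list's median. The list of other receptor target genes has a median of 1.38 in the PCN comparison, with Cyp3a11 at 3.83, and no point in either panel was called.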

How the data were processed

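RNA-seq read counts per gene were analysed for 12 duodenum libraries, in 4 groups of 3 taken from the labels. The authors deposited raw counts in 2 tables, HFD with Chow (28066 genes) and HFD PCN with HFD Vehicle (28731), beside their own log2 fold changes and adjusted p-values. The submitters' processing notes name HISAT2, HTSeq, DESeq2 and the build GRCm38 (mm10). Not given in the sources used here were the versions, the annotation release and the strand setting. In both tables the first 8 column names stand 1 column off their values and were read accordingly, and 0 value columns were left without a sample. Genes absent from a table were not set to 0.

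Fits used the 6 libraries of a comparison alone, in edgeR 4.0.16 and R 4.3.3 (filterByExpr, TMM, robust quasi-likelihood F test), with Benjamini-Hochberg adjustment over all genes fitted and calls at an adjusted p under 0.05. Comparisons across the tables used the 26121 genes in both. Standard errors are the log2 fold change divided by the root of F, an approximation. Intervals of fold changes apply a normal quantile at 95% to these errors. The F test has few residual degrees of freedom, so these intervals are too narrow for it, and no call rests on them. CPM levels were scaled by TMM over all 12 libraries, and log2 CPM used a prior count of 2. At these depths 3 counts over a group correspond to 0.0652 to 0.102 CPM, and intervals and limits on low counts cover counting error only. The fits were tested on simulated counts with the same relative spread for every gene and no outlying libraries. That test does not cover genes as variable as S100g or libraries that stand apart.

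Alternatives were DESeq2 1.42.0, limma-voom (limma 3.58.1), other size factors, no low-count filter, 1 fit of all libraries, scaling to enterocyte markers, removal of ribosomal RNA-like genes and leaving out libraries. The genes and lists were chosen with earlier results of these data known. Named genes are the 5 absorption genes, each called gene of a list, otherwise up to 4 genes a list with the smallest p in either main comparison and a mean of at least 20 counts. Rxra, Slc30a10 and other genes given beside them are list members named after their values were seen. Promoter sequences are those of RefSeq. Some genes that these rules name are not reported here.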

Additional observations from a re-analysis of the deposited data

How the results depend on the processing

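No paired analysis was possible because each library carries a number of its own and the groups share none. Of 177 alternative values of the fold changes of Vdr, S100g and Atp2b1, 167 kept their direction, 10 reversed and 3 passed the threshold. Of the 10, 3 were Vdr scaled to enterocyte markers, where the median of all genes shifted too: -0.19 against a median of -0.74 in HFD PCN against HFD Vehicle, -0.10 against -0.31 in HFD PCN against HFD, and 0.080 against 0.39 in HFD Vehicle against HFD. On this scale Vdr thus reversed. Setting it against these medians would largely undo the scaling, so that comparison is no further test. In HFD Vehicle against HFD, with a library left out Vdr ranged over -0.34 to 0.087 (0.087 without HFD 30, 0.017 without HFD Vehicle 23) and S100g over -3.14 to 0.040 (0.040 without HFD 30). Without HFD Vehicle 23 and 50, S100g was 0.73 and Atp2b1 0.020. In HFD against Chow, Atp2b1 was -0.091 without HFD 30, within -0.091 to 0.54 with a library left out, and -0.013 with the proximal covariate.

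Absorption genes called in HFD PCN against HFD Vehicle numbered 1 with no low-count filter (Atp2b1, 1.27, edgeR adjusted p = 0.0305) and 0 to 1 with a library left out (1, Atp2b1, without HFD Vehicle 55). In HFD against Chow they numbered 1 with the proximal covariate (S100g), in a fit whose number of calls over all genes is not given here. All genes called in HFD against Chow numbered 10, but 134 by DESeq2, 6 by limma-voom, 351 with no filter, 2 in the fit of 12 libraries, 73 scaled to enterocytes, 57 without HFD 38 and Chow 19, and 4 to 63 with a library left out. In HFD PCN against HFD Vehicle they numbered 10, but 339 by DESeq2, 843 with no filter, 34 in the fit of 12, 6 scaled to enterocytes, 4 without ribosomal RNA-like genes, 2 without HFD Vehicle 23 and 50, 0 with the covariate (edgeR), and 0 to 3697 with a library left out (3697 without HFD Vehicle 55). In HFD Vehicle against HFD they numbered 0 by edgeR, but 32 by DESeq2, 1 with no filter, 1 in the fit of 12, 6 without HFD Vehicle 23 and 50, and 0 to 260 with a library left out. In HFD PCN against HFD they numbered 52, but 403 by DESeq2, 31 by limma-voom, 746 with no filter, 29 in the fit of 12, 159 scaled to enterocytes, and 1 to 452 with a library left out. The causes were not tested. Trpv6 had counts in 4 of 12 libraries and was not tested.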
